A study of Sus scrofa with 19 samples.

Results

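The samples described here are the endometrium of 4 control gilts, numbered 9, 14, 28 and 46, in which both uterine horns were infused with vehicle only. They were chosen by their labels, as the arrays marked CTRL_L and CTRL_P of a same gilt number, and make up 8 of the 19 arrays of the series, or 4 of its 10 gilts. The endometrium lines the uterus, and a gilt is a pig that has not yet had a litter. The animals were crossbred gilts aged 8 months. Both horns had been cannulated at day 8 or 9, and infusions followed at 4 h intervals through 24 h at days 11 to 12 of the cycle. Each infusion of a control horn was 5 mL of saline that contained 1% ethanol. The treated gilts, used here in a single comparison of horn differences and as reference values for named genes, received prostaglandin E2 (PGE2, 200 µg) with estradiol (E2, 33.3 µg) per infusion in a horn picked at random and vehicle in the other. Each array held RNA of 1 horn of 1 gilt. The meaning of the letters L and P is not given in the labels, so the horns are called by these marks.

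The pig uterus has a pair of long horns that share an ovarian cycle and a circulation but each keep their own lining. In the days of the cycle sampled here, progesterone from the corpora lutea acts on a lining of surface epithelium, coiled glands, stroma, vessels and immune cells, which lies on a muscular wall, the myometrium. The glands then secrete proteins such as ACP5 (uteroferrin, an iron-binding phosphatase) and RBP4 (a carrier of retinol), and conceptus oestrogen and prostaglandins act on this tissue when the gilt is pregnant. A gilt that receives vehicle in both horns shows how much the lining varies within an animal and between animals when no hormone is infused.

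Of 43603 probes, 37201 were well above background on at least 4 of the 8 arrays, and 36899 of these had no spot with an outlier flag and were tested. Levels are given as the log2 signal minus the array's 75th percentile, so that 0 is the 75th percentile of that array and 1 unit is a 2-fold difference. They compare arrays for a same probe, and not genes with each other. A gene symbol was available for 6768 probes of the array, and the tested ones gave 2905 genes, each represented by its probe of the highest mean. Between 79.1% and 87.1% of spots were well above background on these arrays, the 75th percentile of signal was 663 to 903, and no spot was saturated. All 9 measured epithelial genes were well above background on all 8 arrays, as were all 4 stromal and all 9 endothelial genes. The same held for 2788 of all 2905 genes tested, so these counts do not identify the tissue. The L horn of gilt 28 held 360 spots in darkened patches, with a median of −2.64 log2 relative to the other arrays, and only 10 of these spots carried an outlier flag. The other 7 arrays held 0 such spots. Both horns of a gilt lay on 1 slide, with 4 slides for the 4 gilts, so gilt and slide cannot be told apart. The L array was always at slide position 1 or 3 and the P array at position 2 or 4, so horn mark and position cannot be told apart either.

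The horns of a gilt were more alike than the horns of different gilts. The median absolute log2 difference between arrays of the same gilt was 0.22 in gilt 9, 0.15 in gilt 14, 0.13 in gilt 28 and 0.12 in gilt 46. Between arrays of different gilts it ran from 0.20 to 0.31 over 24 pairs, with a median of 0.25. Gilt 9 was the animal whose own pair lay within the range of the pairs of different gilts, and the pairs of the other 3 gilts lay below it. The consensus correlation within a gilt, the share of the residual variance that both horns hold in common, was 0.598. It was 0.696 without gilt 9 and 0.517 without gilt 46. Over the tested genes, the median SD of the 4 gilt means was 0.20 log2. The median SD between the horns of a gilt, per array and with the mean P minus L taken out, was 0.14 log2. The SD of gilt means also holds part of the spread between horns.

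**Figure D1:**
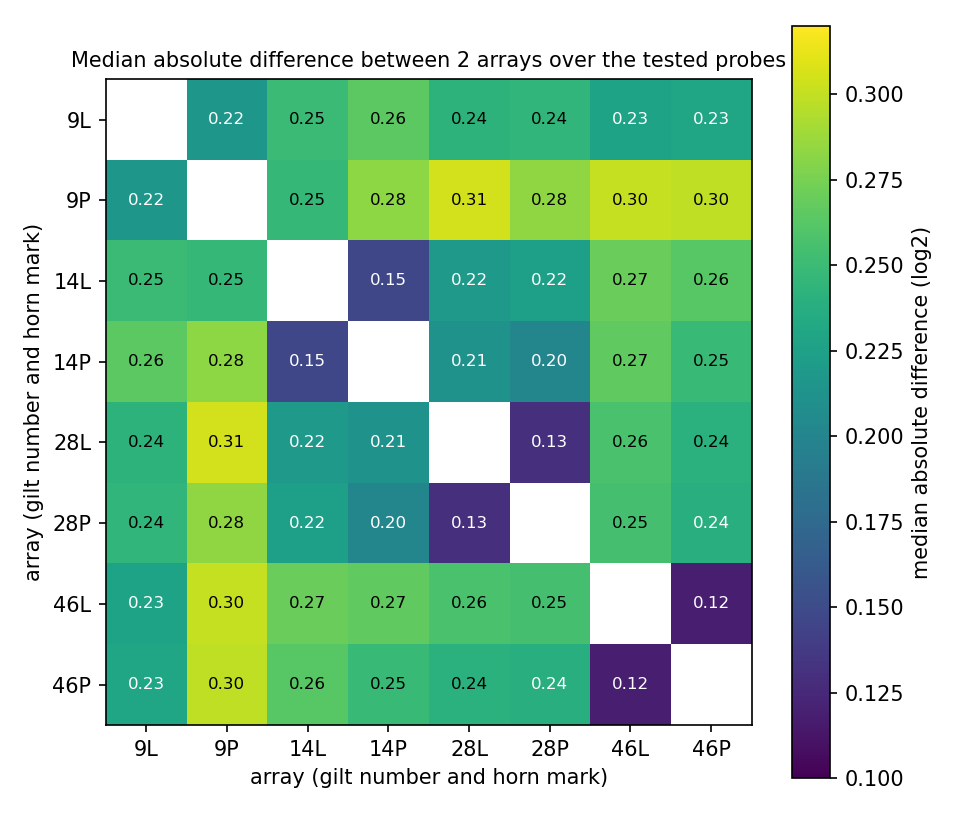
Median absolute difference in log2 signal over 36899 probes for each pair of the 8 control arrays, with gilt number and horn mark on both axes. The same-gilt cells of gilts 14, 28 and 46 hold 0.15, 0.13 and 0.12, below every cell between gilts, and the row of the P horn of gilt 9 holds the highest values, up to 0.31.

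The question of the paired comparison was whether the endometrium of the P horns differed from that of the L horns when both received vehicle. No probe passed the test: 0 of 36899 probes (0%) and 0 of 2905 genes were called by limma with gilt as a block at a Benjamini-Hochberg adjusted p of 0.05, and the smallest adjusted p was 0.936. At an unadjusted p of 0.05, limma gave 1665 probes (4.51%), of which 1086 were lower in P (2.94%) and 579 higher in P (1.57%). The median SE of a probe's mean horn difference was 0.10 log2 and the median half-width of its 95% interval was 0.26 log2. With 4 gilts a consistent difference smaller than that was therefore not detectable for a typical probe. The interval is not adjusted for the 36899 probes tested, so larger consistent differences could also go uncalled. RHOF, at −0.38 ± 0.07 log2 (SE), was not called. The count of probes lower in P in all 4 gilts was 3078 (8.34%), and 2127 were higher in P in all 4 (5.76%).

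The 10 genes with the smallest unadjusted p are described next, although none passed the test (limma adjusted p of 0.936 for each). Of these, 9 had lower values in the P horn of every gilt, by means of 0.29 to 0.45 log2. They included RELA, a subunit of the transcription factor NF-κB, AKT1, a kinase downstream of growth factor receptors, BMP4, a secreted growth factor, and NCF1, a subunit of the phagocyte oxidase. RELA was −2.02, −2.84, −2.51 and −2.15 in the L horns of gilts 9, 14, 28 and 46, and −2.58, −3.18, −2.82 and −2.45 in their P horns. The L and P values overlapped across gilts, while within each gilt the P horn was lower, by 0.31 to 0.56 log2. AKT1 was −0.21, −0.91, −1.05 and −0.06 in the L horns against −0.92, −1.34, −1.25 and −0.48 in the P horns, a mean difference of −0.44 ± 0.10 (SE, n = 4 gilts). The remaining 5 of the 9 were RHOF, FLOT1, NECTIN2, PNPLA2 and PRKAG1. CELA2A, which encodes a chymotrypsin-like elastase, had the opposite sign, with a mean of 0.71 ± 0.15 log2 (SE) and a higher value in P in all 4 gilts.

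**Figure D2:**
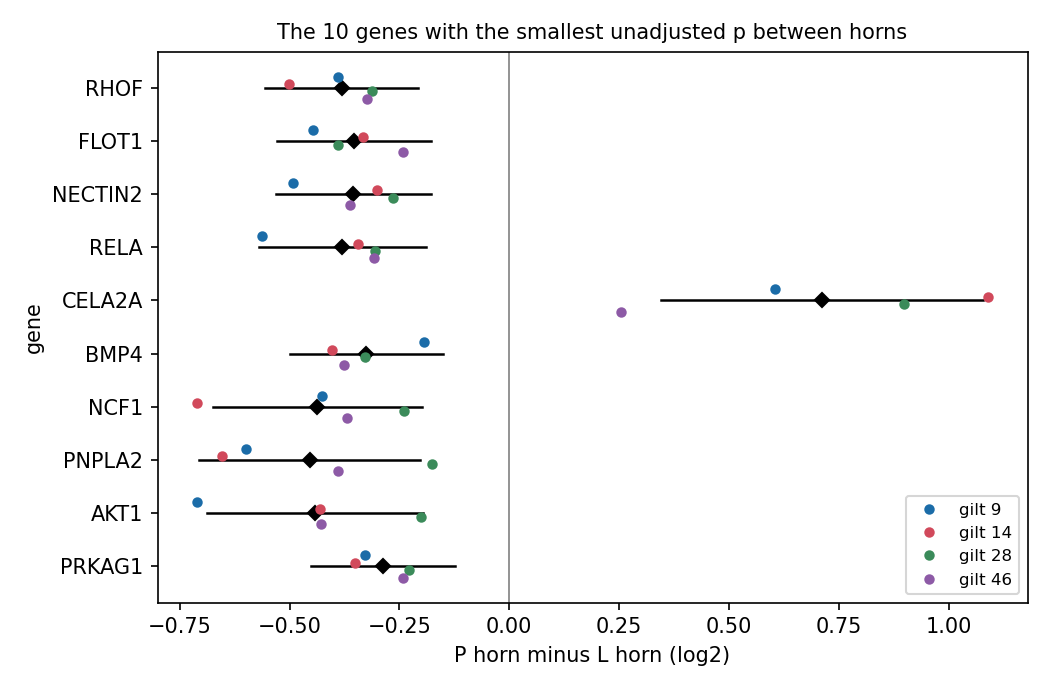
P horn minus L horn in log2 units for the 10 genes with the smallest unadjusted p, with 1 point per gilt, a diamond for the mean of the 4 gilts and a bar for its 95% interval. The 4 points of each gene lie on 1 side of 0, and 9 of the 10 genes lie below it, between means of −0.29 and −0.45, but none passed the test after adjustment.

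Genes through which the uterus responds to ovarian steroids were close to equal in both horns. PGR, the progesterone receptor, was 0.51, 0.64, 0.34 and 0.78 in the L horns and 0.60, 0.79, 0.28 and 0.69 in the P horns, with a mean difference of 0.02 ± 0.08 (SE). ESR1, the main oestrogen receptor of the uterus, had a mean difference of −0.07 ± 0.08 (SE). ESR2 was not well above background on any of the 8 arrays. None of the 10 tested steroid receptor and coregulator genes was called between horns or among gilts, beside 0% and 10.2% of all genes. Their median P minus L was 0.01 log2, beside −0.01 over all genes tested.

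The 10 prostaglandin genes tested gave no call between horns and none among gilts, where 10.2% of all genes were called, so a count of 0 in 10 lies near that share. PTGS2, the inducible cyclooxygenase, was 2.95, 1.96, 1.96 and 2.53 in the L horns and 0.92, 2.56, 2.29 and 2.49 in the P horns. The P horn of gilt 9 was the low sample, and the other 7 lay between 1.96 and 2.95. PTGES, a PGE2 synthase, was also lowest in that horn, at 1.25, against 1.78 to 2.58 in the other 7. AKR1B1, an aldo-keto reductase that can make prostaglandin F, showed its lowest value there too, at −0.65, with the other 7 between −0.21 and 0.86.

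Products of the uterine glands varied between the horns of single animals without a common direction. ACP5 stayed within 8.12 to 8.50 on the 8 arrays. RBP4 was 7.68, 7.12, 7.34 and 7.47 in the L horns and 6.24, 7.13, 7.82 and 7.39 in the P horns, so that the P horn of gilt 9 was again the low one. SPP1, which encodes the adhesion protein osteopontin, was −0.19, 0.67, −0.58 and −0.58 in the L horns and −0.40, 1.14, −0.42 and 1.40 in the P horns. In gilt 46 the SPP1 value of the P horn was 1.98 log2 above that of the L horn, while the 3 other gilts differed by −0.20 to 0.48. STC1, a secreted glycoprotein, differed by 2.66 log2 between the horns of gilt 28 and by −1.42 in gilt 9. The L horn of gilt 28 held its lowest value, −3.27, while the other arrays lay between −2.39 and −0.61. Its spot lay outside the darkened patches of that array, and whether it is damaged was not tested. Over the 21 secretory genes tested, 11 had a higher mean in P and the median difference was 0.01 log2.

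Large differences between the horns of single gilts were unequal in number from animal to animal. A difference of more than 1 log2 unit between horns was counted in 1444 probes of gilt 9 (3.91%), 662 of gilt 14 (1.79%), 876 of gilt 28 (2.37%) and 205 of gilt 46 (0.556%). These counts have no replicate check, because each gilt gave 1 array per horn. When probes with a spot in a darkened patch were left out, gilt 28 kept 626 probes past that limit (1.71%). The genes with the largest difference in gilt 28 lay in those patches. GPX4, a glutathione peroxidase, read −4.09 in the L horn of gilt 28 and 3.56 to 4.06 on the other 7 arrays, whereas its 2 other probes read 2.75 and 2.66 there against 2.84 and 2.83 in the P horn. GALM and GRB10 showed the same pattern, at −4.41 and −3.82 in that L horn. S100A8 and FKBP4 also had their spot in a patch on that array. Outside the patches, and named after their values were seen, ACADS (an acyl-CoA dehydrogenase) and ATM (a DNA damage kinase) were the genes furthest apart in gilt 28, at −1.76 and −2.84 in its L horn against 2.61 and 1.06 in its P horn. The other 7 arrays held 2.61 to 3.29 for ACADS and 0.93 to 1.18 for ATM, so the spot of that L array alone stood apart. On that array 292 spots lay more than 3 log2 from the other arrays, 174 of them in the patches, against 29 to 101 such spots on each other array. Whether the ACADS and ATM spots are damaged in the same way was not tested.

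Contractile genes were among the genes furthest apart between the horns of gilt 9. Over all probes outside the patches, 638 were higher and 789 lower by more than 1 log2 in the P horn of that gilt, and the share of contractile genes in its horn difference was not measured. CNN1, the smooth muscle protein calponin, was 1.28, 1.44, 1.95 and 3.83 in the L horns of gilts 9, 14, 28 and 46 and 5.57, 2.65, 1.90 and 2.87 in their P horns. The P horn of gilt 9 was thus the highest of the 8 arrays and its L horn the lowest, and gilt 46 had the higher value in L. PDLIM3, a protein of the muscle Z disc, was −3.62 in the L horn and 1.09 in the P horn of gilt 9, and −0.99 and −2.24 in gilt 46. TPM2, a tropomyosin, differed by 3.45 log2 in gilt 9, 0.79 in gilt 14, 0.04 in gilt 28 and −0.77 in gilt 46. MYL9, a regulatory light chain of myosin, differed by 3.12, 0.76, −0.08 and −0.69, and DES, the muscle filament desmin, by 2.91, 0.55, −0.10 and −0.74 in the same order.

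Of the 11 tested members of the smooth muscle and contractile list, 10 were higher in P in gilt 9, 9 in gilt 14, 1 in gilt 28 and 2 in gilt 46. The list's median P minus L was 1.61 in gilt 9, 0.30 in gilt 14, −0.10 in gilt 28 and −0.55 in gilt 46, beside medians over all genes of −0.04, 0.01, −0.04 and 0.01. None of the 11 was called between horns, and CNN1 had a mean difference of 1.12 ± 0.84 (SE, n = 4 gilts). The skeletal muscle members of the list were mixed in gilt 9: ACTA1 differed by 1.61, TNNT1 by 0.96, TNNT3 by 0.04 and MYL1 by −0.36. In bulk tissue, a different share of muscle in the sample and a different level of RNA per cell cannot be told apart. The labels do not describe how much of the uterine wall was taken with the lining.

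The other cell type lists did not share a direction in gilt 9. The median of the 9 epithelial genes was −0.35 log2 there, against −0.02, −0.03 and −0.08 in gilts 14, 28 and 46. Of these 9 genes, 2 were higher in the P horn of gilt 9, CLDN3 by 0.38 and CLDN10 by 0.31. CLDN4, a tight junction protein, was 0.94 in the L horn and −0.55 in the P horn of gilt 9, while in the other 3 gilts the difference was −0.39 to −0.02. Endothelial genes had a median of −0.35 in gilt 9 and 0.05 to 0.13 in the others. Of the 9 endothelial genes, 1 was higher in the P horn of gilt 9, PECAM1 by 0.42. The 23 interferon-induced genes were all lower in the P horn of gilt 9, with a median of −0.56, whereas 20 of 23 were higher in P in gilt 14. All 14 genes of MHC class I and peptide loading were lower in the P horn of gilt 9, with a median of −0.40. Over all 2905 genes, 1333 were higher in the P horn of gilt 9. Whether the muscle genes account for these lower values was not tested. Other cell type lists with a higher median in the P horn of gilt 9 were those of stroma and fibroblasts (0.16, 4 genes), mast cells (0.29, 2 genes), red blood cells (0.27, 2 genes) and mesothelium (0.12, 4 genes), and the 1 measured gene of ciliated cells differed by 0.37. Lists of cell functions with a higher median there included cytosolic ribosomal proteins (0.20, 27 of 30 genes higher) and oxidative phosphorylation (0.12, 9 of 12).

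**Figure D3:**
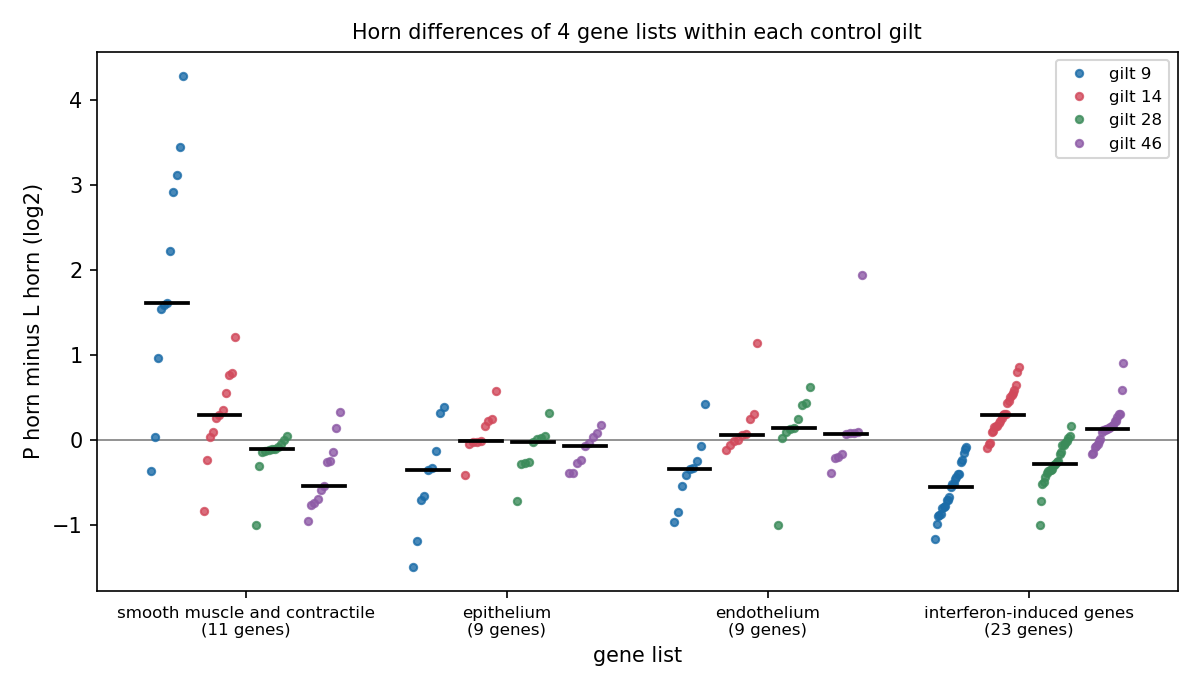
P horn minus L horn in log2 units for the measured members of 4 gene lists, with 1 point per gene, colours for the 4 control gilts and a black bar for the median of a list in a gilt. Contractile genes reach 4.28 in gilt 9 with a median of 1.61, while the interferon-induced genes of that gilt all lie below 0.

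The size of the horn difference in control gilts was set against that in the 5 treated gilts with both horns measured, over 36777 probes. The median absolute difference had a mean of 0.153 ± 0.0436 log2 (SD, n = 4) in control gilts and 0.249 ± 0.102 (SD, n = 5) in treated gilts. The difference of 0.0959 did not pass an exact two-sided permutation test over gilts (p = 0.127; the smallest p that the design allows is 0.00794). The control values ran from 0.118 to 0.216 and the treated values from 0.157 to 0.403, so the groups overlapped. The vehicle horns of gilt 9 thus differed about as much as the hormone and vehicle horns of gilt 38, at 0.213. Contractile genes also differed between the horns of treated gilts, with list medians for the P horn minus the L horn of 1.18 in gilt 36, 0.81 in gilt 44, 0.34 in gilt 41, 0.30 in gilt 47 and 0.08 in gilt 38. In all 5 of these gilts the P horn was the hormone horn, and its array was at position 2 or 4 of its slide, so mark, position and treatment cannot be told apart. The median horn difference over all probes was 0.156 in gilt 36 and 0.0754 in gilt 44, and lay between −0.0453 and 0.0192 in gilts 38, 41 and 47. That of the endothelial list was 0.44 in gilt 36, 0.83 in gilt 44, 0.14 in gilt 41, −0.28 in gilt 47 and −0.07 in gilt 38.

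**Figure D4:**
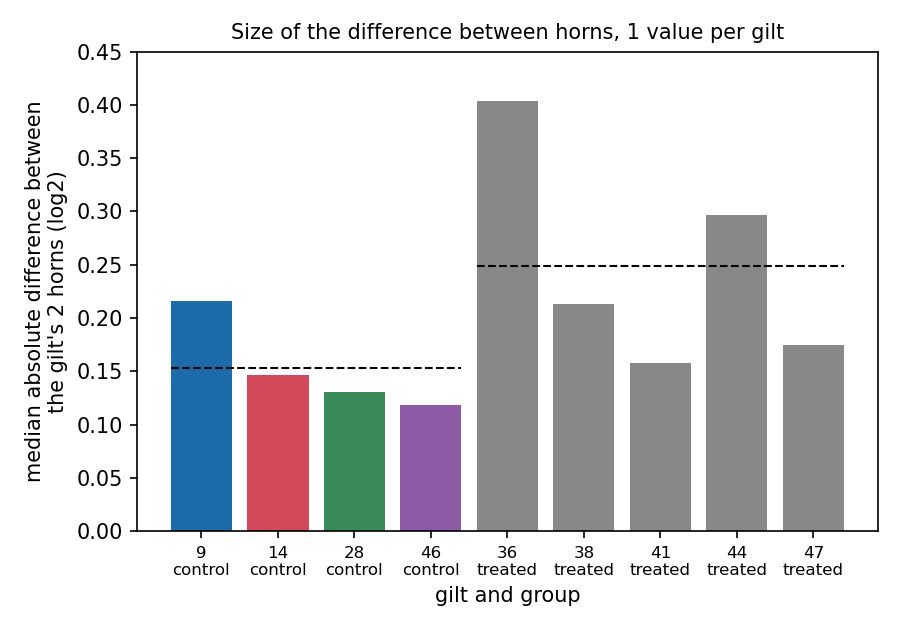
Median absolute log2 difference between the horns of each gilt, with 1 bar per gilt, control gilts in colour, treated gilts in grey, and a dashed line for each group's mean. The bars run from 0.118 to 0.216 in control gilts and from 0.157 to 0.403 in treated gilts, and the ranges overlap.

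The control gilts differed from one another in many genes by more than their horns did. By limma's moderated F-test over gilts, with the horn mark in the model, 3800 probes (10.3%) and 295 of 2905 genes (10.2%) were called at an adjusted p of 0.05. The error of this test is the spread between the horns of an animal, so it speaks of these 4 animals. The count depended on the animals included: it was 77 without gilt 46, 581 without gilt 28, 704 without gilt 14 and 6663 without gilt 9. It was 214 without the L horn of gilt 28 alone and 4639 when only the probes in its darkened patches were left out. Against the mean of the other 3, gilt 46 had 1222 higher and 1622 lower probes (3.31% and 4.4%) and gilt 9 had 1063 and 1172 (2.88% and 3.18%). Gilt 28 had 548 and 267 (1.49% and 0.724%) and gilt 14 had 305 and 279 (0.827% and 0.756%). Without the L horn of gilt 28, the calls for gilts 9, 14, 28 and 46 were 297, 18, 0 and 359. Without the P horn of gilt 9 they were 217, 2316, 1607 and 4197. With normexp background correction, 61.7%, 81.8% and 19% of the calls for gilts 9, 14 and 46 were higher, against 47.6%, 52.2% and 43% here. Gilts 14 and 28 were scanned on a same day, and the 8-array fit called 262 probes between them (0.71%). A fit of the 4 arrays of that day alone, with 1 residual degree of freedom, called 1 probe (0.00271%). The other gilts had a scan day each, which cannot be told apart from the animal.

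Several genes were at a high or low level in both horns of 1 animal. MUL1, a ubiquitin ligase of the outer mitochondrial membrane, was −3.27, 0.83, −2.91 and −3.52 in the L horns of gilts 9, 14, 28 and 46 and −3.25, 0.73, −3.33 and −3.42 in the P horns. Gilt 14 was therefore apart from the other 3 in both horns, with a 19-fold range of gilt means (limma contrast of gilt 14 with the others 4.06 ± 0.12 SE, adjusted p = 0.0033). Among the 6 treated gilts, 5 had MUL1 means between −3.17 and −2.49, and gilt 47 was at 0.51. PGM1, a phosphoglucomutase of glycogen metabolism, was −0.76 and −0.66 in the horns of gilt 14 and 1.31 to 1.89 in the other 6 arrays. Its contrast was −2.27 ± 0.08 (limma adjusted p = 0.0033), but a second PGM1 probe differed less, at −1.65 and −1.86 in gilt 14 against −1.72 to −1.06. Among treated gilts, PGM1 was low in gilts 44 (−0.16) and 40 (−0.25), and the other 4 lay between 1.52 and 1.84. CELA2A was also highest in gilt 14, at −0.02 and 1.07, against −4.54 to −2.34 on the other arrays. The contrasts of MUL1, PGM1 and CELA2A in gilt 14 were called with each of the other gilts left out in turn.

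OAZ3, an antizyme that inhibits ornithine decarboxylase in polyamine synthesis, divided the gilts into pairs. It was 0.40 and 0.57 in gilt 9 and 0.19 and 0.20 in gilt 46, but −2.12 and −2.46 in gilt 14 and −2.70 and −2.81 in gilt 28 (limma F adjusted p = 0.00268). A second OAZ3 probe gave the same order, from −1.02 to −1.33 in gilts 9 and 46 and from −2.84 to −3.38 in gilts 14 and 28. Gilts 14 and 28 were scanned on a same day and lay at slide positions 1 and 2. Gilts 9 and 46 lay at positions 3 and 4. Scan day, position and animal cannot be told apart in this split. Of the treated gilts, gilt 36, on the slide of gilt 9, was at 1.37 and the other 5 lay between −3.95 and −3.33. GSTA1, a glutathione S-transferase, was 3.96 and 3.53 in gilt 9, 4.15 and 4.5 in gilt 28, 1.75 and 1.11 in gilt 46, and 0.45 and −0.07 in gilt 14. Its range of gilt means was 17.6-fold, and the treated gilts also spread, from −2.22 in gilt 47 to 3.62 in gilt 36. SAL1, a lipocalin that carries small lipophilic molecules, was 8.68 and 8.84 in gilt 9 and 5.07 to 7.21 in the others. In treated gilts its mean went from −1.97 in gilt 40 to 8.94 in gilt 36.

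The heat shock genes HSPA6, HSP70.2 and DNAJB1 were lowest in gilt 9. HSPA6, an inducible HSP70 chaperone, was −3.57, −1.20, 0.90 and 0.06 in the L horns and −3.58, −1.53, 0.69 and 0.99 in the P horns of gilts 9, 14, 28 and 46. The gilt means ranged over 20.7-fold, with gilt 9 lowest in both horns (limma F adjusted p = 0.0104). HSP70.2, another inducible chaperone, was 2.02 and 2.10 in gilt 9 against 3.30 to 4.82 on the other arrays, and DNAJB1, an HSP40 cochaperone, was 3.05 and 3.12 against 3.91 to 5.69. Together with HSPH1 these made 4 of 11 tested heat shock genes called among gilts, beside 10.2% of all genes. Without the P horn of gilt 9, the contrast of HSP70.2 in gilt 9 was not called (limma adjusted p = 0.0618). Gilt 36, a treated animal whose arrays shared the slide of gilt 9, had an HSPA6 mean of −3.51, a DNAJB1 mean of 3.21 and an HSP70.2 mean of 2.10. The other 5 treated gilts were at 1.5 to 2.05, 4.89 to 5.55 and 3.97 to 5.03 for these genes. The part of the slide in these values cannot be told apart from that of the animals.

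Several secreted and signalling genes were high in gilt 46. SLPI, a secreted inhibitor of serine proteases, was 6.99 and 7.43 in gilt 46 and 3.84 to 5.67 in the others (contrast 2.13 ± 0.27, limma adjusted p = 0.0196). All 6 of its other probes had the same highest and the same lowest gilt. SLPI lay at 6.89 to 9.17 in the treated gilts. SPINK4, a Kazal-type protease inhibitor, was −2.48 and −2.36 in gilt 46 and −5.76 to −4.36 elsewhere. The ectonucleotidase ENTPD1 was low in gilt 46, at 0.48 and 0.88 against 2.26 to 3.57, but it was not called without the L horn of gilt 28 (limma adjusted p = 0.0553), and its 3 other probes gave no call. BDNF, a neurotrophin, was −3.45 and −4.04 in gilt 46, and not well above background in gilts 14 and 28, which makes its range at least 7.73-fold. AREG, a ligand of the EGF receptor, was −4.19 and −4.35 in gilt 46 and not well above background in gilt 9, a range of at least 8.87-fold. FOS, an immediate early transcription factor, was 0.68 and 0.65 in gilt 46 and −3.37 to −0.89 elsewhere, with a contrast of 2.31 ± 0.41 (limma adjusted p = 0.0365). That contrast was not called without the L horn of gilt 28 (adjusted p = 0.0946).

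Of the 15 genes with the largest spread of gilt means among those called, 14 are described here. Of these 14, only GSTA1, HSPA6 and OAZ3 were called among gilts with each of the 4 animals left out in turn. Another 6 were called in 3 of the 4 fits: MUL1 and CELA2A were lost without gilt 14, and SPINK4, SLPI, CLEC7A and PLA2G12B without gilt 46. BDNF and SAL1 were called in 2 of 4 fits. ENTPD1, WFDC2 and AREG were called in 1 of 4. Their adjusted p-values over these fits ran up to 0.342 for ENTPD1, 0.103 for WFDC2 and 0.231 for AREG by limma. Without the L horn of gilt 28, the adjusted p was 0.0641 for BDNF, 0.0634 for PLA2G12B, 0.0850 for WFDC2, 0.0901 for AREG, 0.0947 for ENTPD1 and 0.0651 for SLPI, and the other 8 were still called. Without the P horn of gilt 9, the adjusted p of AREG was 0.0555.

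**Figure D5:**
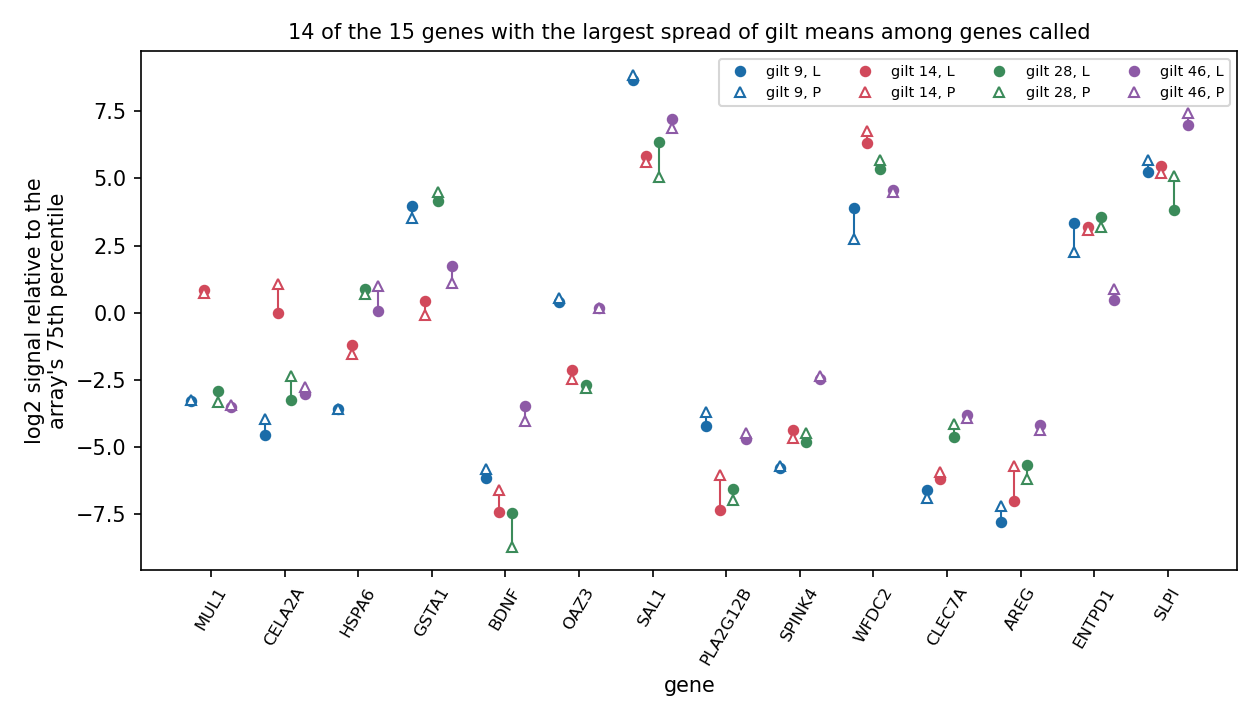
Log2 signal relative to the array's 75th percentile for 14 of the 15 genes with the largest spread of gilt means among genes called, with filled circles for L horns, open triangles for P horns, a line between both horns of a gilt and a colour per gilt. MUL1 lies near 0.8 in gilt 14 and near −3 in the others. OAZ3 forms a high pair, gilts 9 and 46, and a low pair, gilts 14 and 28, which were scanned on a same day.

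Among immune genes, calls among gilts were unevenly spread over the lists, beside 10.2% of all genes. Of 23 interferon-induced genes 2 were called, as were 2 of 16 T and natural killer cell genes, 2 of 14 MHC class I genes, 1 of 9 neutrophil genes and 0 of 3 B cell genes. The neutrophil gene called was S100A8, whose spot lay in a darkened patch on the array of the L horn of gilt 28. Of 9 tested genes of MHC class II, through which antigen-presenting cells show peptides to helper T cells, 6 were called (SLA-DRA, SLA-DRB1, SLA-DQA1, SLA-DQB1, SLA-DMB and SLA-DOA). SLA-DRB1 was 2.61, 3.21, 3.73 and 3.0 in the L horns of gilts 9, 14, 28 and 46 and 2.31, 3.30, 3.75 and 2.82 in the P horns, lowest in gilt 9 and highest in gilt 28. SLA-DRA and SLA-DQB1 were also highest in gilt 28, at 4.96 and 5.00 and at 4.18 and 4.32. MHC genes are highly polymorphic, and whether sequence differences under the probes contribute was not tested. CD3E, a chain of the T cell receptor complex, was −1.64 and −1.62 in gilt 14 and −2.80 to −1.97 in the others, but CD3D and CD2 did not follow that order and were not called. Of 13 macrophage and dendritic cell genes, CD163, FCN1 and TYROBP were called. Of 2 mast cell genes tested, both KIT and MS4A2 were called, with KIT at −0.68 and −0.17 in gilt 9 and 0.74 and 0.87 in gilt 46. CCL26, a chemokine, was −1.87 and −1.85 in gilt 9 and 0.79 and 0.76 in gilt 46 (limma F adjusted p = 0.0144).

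Genes linked to embryo receptivity and adhesion were called among gilts in 8 of 25 cases, beside 10.2% of all genes tested. These were LPAR1, ITGB3, ITGB5, ITGA4, VTN, IL6, HBEGF and AREG. IL6, a cytokine, was −1.32 and −1.5 in gilt 46 and −3.52 to −2.25 elsewhere. ITGB3, an integrin chain, had a small spread, from 9.21 to 9.72. SLC5A1, a sodium-glucose cotransporter, was 2.87 and 2.59 in gilt 14, 2.34 and 2.19 in gilt 28, 1.67 and 1.5 in gilt 9, and 0.61 and 0.65 in gilt 46 (limma F adjusted p = 0.00601). In that order, no gilt overlapped another. Of 18 acute phase and antimicrobial genes, 5 were called (SAA3, SERPINA1, SLPI, WFDC2 and CHI3L1), and the list's median SD of gilt means was 0.66 log2, beside 0.20 over all genes. WFDC2, a secreted protein of epithelia, was 6.33 and 6.77 in gilt 14 and 3.90 and 2.76 in gilt 9.

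Groups of basic cell functions had a low spread of gilt means, beside 0.20 log2 over all genes. The median SD of gilt means was 0.11 log2 for 8 endoplasmic reticulum chaperones, 0.12 for 12 oxidative phosphorylation genes and 0.14 for 30 cytosolic ribosomal proteins. These lists also had high signals, with means of 2.28, 4.43 and 7.10 in the L horn of gilt 9, beside −0.25 over all genes tested. Whether genes of a same signal level spread as little was not tested. No chaperone and no oxidative phosphorylation gene was called among gilts, whereas 6 of the 30 ribosomal genes were, beside 10.2% of all genes, RPS28 among them, at 8.15 to 8.43 in gilts 9, 14 and 28 and 7.87 and 7.83 in gilt 46. RPL7, a ribosomal protein, lay between 7.27 and 7.37 on all 8 arrays, PPIA, the isomerase cyclophilin A, between 5.72 and 5.91, and CANX, the chaperone calnexin, between 3.67 and 3.87. GAPDH, often used as a reference gene, was higher in the P horn of all 4 gilts by a mean of 0.23 ± 0.06 log2 (SE), which did not pass the limma test (adjusted p = 0.936). None of the 18 extracellular matrix genes tested was called among gilts, although TNC, the matrix protein tenascin C, was −3.30 in the L horn and −0.04 in the P horn of gilt 9. Of 10 cell division genes 1 was called, near the 10.2% of all genes; this was TOP2A, with its lowest value, −5.06, in the P horn of gilt 9.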

How the data were processed

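Total RNA of each horn was labelled with Cy3 and hybridised to one-colour Agilent arrays, per the labels. Spot values in the deposited scanner files are linear intensities, background-subtracted by Feature Extraction 10.7.3.1, per the file headers, whereas the submitters' processing notes name version 9.1. The authors' deposited table, used as an alternative, holds log2 values. The sources used here do not state their scaling and centring. Control spots and outlier-flagged spots were left out, processed signals were scaled to each array's 75th percentile, and spots of a probe were averaged. Genes were named through RefSeq transcript accessions (6876 probes matched). Tests used limma 3.58.1 in R 4.3.3 (lmFit, eBayes with trend, Benjamini-Hochberg over all probes), and the fits were tested on simulated data. Replicates are gilts, paired because both horns come from 1 animal; same-gilt deviations correlated at 0.409 to 0.645. Alternatives covered scaling, normexp (offset 50, on median signals), filters and left-out animals. Named genes followed a rule: smallest p between horns, largest spread of gilt means, largest contrasts, largest horn differences, and list members; 1 gene that it picked is not reported here. Members and lists were chosen with earlier results of these data known. A probe not well above background in both horns of a gilt gave a bound, its fold computed from the higher of the lowest signal well above background and the probe's own. Array number limits precision.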

Additional observations from a re-analysis of the deposited data

Results flagged for a closer look

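Sets of 4 values (the L horns, the P horns or the 4 horn differences) were examined for 1 value far from the other 3, by Dixon's ratio of the gap to the range. Of 189 sets, 17 passed its limit (8.99%). Chance gives about 5% in sets not chosen by their values, but many of these genes were named for large differences, so the shares cannot be compared. In the L horn of gilt 28, GPX4 (−4.09), GALM (−4.41) and GRB10 (−3.82) stood apart, and so did their horn differences in that gilt, at 8.03, 6.79 and 6.68 log2; all 3 spots lie in the darkened patches, and each counts as a level and as a difference. In gilt 9, the horn difference of RELA was −0.56, PTGS2 was 0.92 in the P horn, and the median horn differences of the endothelial list (−0.35) and of the acute phase and antimicrobial list (−0.28) lay below those of the other gilts. In gilt 14, MUL1 was 0.83 in L and 0.73 in P, and DLK1 was −7.78 in L. In gilt 46, ENTPD1 (0.48) and PDLIM3 (−0.99) stood apart among L horns, and C6 (−0.69) and REG3G (0.75) among P horns.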

How the results depend on the processing

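The comparison of P with L gave 0 calls under every alternative run, with the smallest adjusted p between 0.212 (gilt as a random effect) and 1.00. With no replicate block, 309 probes had an unadjusted p under 0.05, against 1665 with the pairing by gilt, and 0 were called. Counts among gilts moved with normexp (10154) and with all 19 arrays in the fit (2084), and were 77 to 6663 with a gilt left out, 214 without the L horn of gilt 28, and 1 within the scan day that held both gilts 14 and 28, where 1 residual degree of freedom was left. No slide held 2 control gilts. With a gilt left out, calls ran from 119 to 726 for gilt 9, 14 to 2743 for gilt 14, 11 to 2086 for gilt 28 and 432 to 6492 for gilt 46. Under normexp they were 2400, 1554 and 9016 for gilts 14, 28 and 46, and for gilt 14 they were 922 without the patch probes. Single arrays left out gave 297, 18, 0 and 359 calls (L horn of gilt 28) and 217, 2316 and 1607 (P horn of gilt 9; gilts 9, 14 and 28). The within-gilt correlation was 0.517 to 0.696 with a gilt left out. The contrast of MUL1 in gilt 28 with the others ran from −1.88 to 0.24 with a gilt left out. The size of the horn difference kept its sign and its side of the threshold in all alternatives (0.0573 to 0.119). The cause of these moves was not tested. With fewer arrays the residual degrees of freedom also fall. Of 160 alternative values for the 10 horn genes, all 160 kept their sign and none was called. These genes were picked by their p in the same data, with horn differences of the same sign in every gilt. Leaving a gilt out therefore could not change the sign. Several other settings left the estimate itself unchanged, such as RHOF at −0.38 with no filter and with no replicate block. The kept signs in such fits thus do not test these genes. Of 236 F-tests for the 15 gilt genes, 203 kept their call. Of 515 values for contrasts of a gilt with the others, 416 kept their call, 98 lost it and 1 changed sign. The gilt genes too were picked by their calls in the same data, and settings such as no filter left their values unchanged. Kept calls in such fits do not test these genes. With all 19 arrays in the fit, BDNF (adjusted p = 0.158), SLPI (0.0750) and AREG (0.0533) were not called among gilts.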
